A study of Mus musculus with 477 samples.

Results

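The MHC class I presentation genes examined here were 10 genes chosen by name, *H2-K1*, *H2-D1*, *B2m*, *Tap1*, *Tap2*, *Tapbp*, *Psmb8*, *Psmb9*, *Psmb10* and *Nlrc5*, and all 10 were among the 21004 genes counted. They were followed in 477 single mammary cells from 11 female mice, 312 luminal cells from 7 mice and 165 tumor cells from 4 mice, which the labels place in 10 groups. Each cell had been isolated in a chamber of a Fluidigm C1 chip, a microfluidic device, and its full-length cDNA was sequenced. Every mouse carried MMTV-Cre, a recombinase transgene active in the mammary epithelium, on a mixed C57BL/6 and 129/Sv background. Luminal mice had the reporter ROSA mT/mG, which the study's figure legend on its tumors does not name for tumor mice. No mouse without a floxed allele was included. Br mice had Brca1fl/fl, 53 mice Trp53fl/+, and Br53 mice both. Trp53fl/+ is from the study's methods, while a supplementary legend of the study gives Trp53fl/fl for mammary cells of young mice. Luminal mice (L) were 3 to 4 months old, and v stands for virgin and p for day 12.5 of pregnancy. Virgin vBrL, vBr53L and v53L and pregnant pBr53L and p53L were counted as 1 mouse each. The pBrL cells were counted as 2 mice (pBrL-1 and pBrL-2 here), split by the SC number in their titles. The tumors BrT1, BrT2, Br53T1 and Br53T2 were taken from 1 mouse each at about 1 cm across. P-values below measure the spread between mice. After blood and endothelial cells had been depleted, luminal cells were sorted as CD24Hi CD29Lo cells positive for the GFP that Cre switches on, and tumor cells as CD24+ cells.

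MHC class I molecules show peptides from inside the cell to CD8+ T cells. A heavy chain, here *H2-K1* or *H2-D1*, pairs with beta-2-microglobulin (*B2m*). The peptides are cut by the proteasome, in which the immunoproteasome subunits *Psmb8*, *Psmb9* and *Psmb10* can replace *Psmb5*, *Psmb6* and *Psmb7*. The transporter made of *Tap1* and *Tap2* moves them into the endoplasmic reticulum, where tapasin (*Tapbp*) helps load them. *Nlrc5* encodes the transactivator of this gene set, and interferon gamma induces most of it. Luminal epithelial cells of the mammary gland carry class I molecules, and tumors can lose them.

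The promoters of the members are shown first, and whether they bear on the levels was not tested. RefSeq windows of 300 bases, 250 before and 50 after the gene start (GRCm38.p6), were at hand for 8 of the 10 members, *Tap2* and *Nlrc5* having none. They were searched on both strands for the kappa B site GGGNNTTCC, an interferon regulatory factor element GAAANNGAA, the gamma-activated site TTCNNNGAA and the CCAAT box. Of all 32851 windows of that length, 5.8%, 8.6%, 8.3% and 37.4% held them. Sites of these kinds written in other letters were not searched for and stay in lower case below. The stretches before *H2-K1* (chr17:34000348-34000597, minus strand) and *B2m* (chr2:122147437-122147685, plus strand) carry, in capitals, the kappa B site and the interferon regulatory factor element.
H2-K1: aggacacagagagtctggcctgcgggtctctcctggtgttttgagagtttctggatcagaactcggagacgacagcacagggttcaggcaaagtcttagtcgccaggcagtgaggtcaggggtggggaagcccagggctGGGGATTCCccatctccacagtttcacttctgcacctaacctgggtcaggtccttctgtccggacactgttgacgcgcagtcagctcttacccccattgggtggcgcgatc
B2m: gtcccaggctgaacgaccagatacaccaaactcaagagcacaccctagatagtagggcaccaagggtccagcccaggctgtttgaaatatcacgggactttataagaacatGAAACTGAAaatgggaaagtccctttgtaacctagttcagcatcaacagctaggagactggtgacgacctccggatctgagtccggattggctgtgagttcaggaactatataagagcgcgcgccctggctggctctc

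The kappa B letters began 111 bases before the RefSeq start of *H2-K1* and 171 bases before that of *H2-D1* (chr17:35262913-35262942, plus strand, for the stretch below), and 29 of 30 bases around them were the same in both genes. In *Psmb8* the gamma-activated site began 97 bases before the RefSeq start (chr17:34198088-34198117, plus strand). For *H2-D1* and *Psmb8* the GENCODE gene begins further upstream than the RefSeq start, so these stretches lie inside the gene as GENCODE draws it. The short stretches set these matches side by side, again with the matched letters in capitals.
H2-K1: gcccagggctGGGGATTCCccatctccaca
H2-D1: gcccagggctGGGGATTCCccatctcctca
Psmb8: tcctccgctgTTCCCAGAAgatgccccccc

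The CCAAT box, a common promoter element, was found in the windows of *H2-K1*, *H2-D1*, *B2m*, *Tap1*, *Tapbp* and *Psmb9*, and the window of *Psmb10* held none of the 4 motifs. These matches are letters in a window and were not tested for binding. On GRCm38, *H2-K1* lies on chromosome 17 from 33996017 to 34000347, *H2-D1* on chromosome 17 from 35262730 to 35267499, *B2m* on chromosome 2 from 122147686 to 122153083 and *Nlrc5* on chromosome 8 from 94434356 to 94527272. *Psmb9* (chromosome 17, 34181987 to 34187764) and *Tap1* (chromosome 17, 34187553 to 34197225) overlap at their starts, on opposite strands. *Tapbp*, *Psmb8* and *Tap2* also lie on chromosome 17, and *Psmb10* on chromosome 8. The heavy chains resemble each other: 8.79% of all 50-base words of the main *H2-K1* transcript and 14.32% of those of *H2-D1* also occur in transcripts of other genes, so a small share of their reads may be split between relatives. For *Psmb9* this share was 12.51%, all of it with *Tap1*, for *Tap2* 12.58% and for *Tapbp* 21.02%, the highest of the members, while *B2m*, *Psmb10* and *Nlrc5* shared none.

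Each mouse contributed 30 to 71 cells and the total depth was 40.3 to 115.8 M (mega) reads per mouse, or 170209 to 3550564 reads per cell, and the values below are CPM, the reads of a gene summed over the cells of a mouse and scaled by its total. The SC number in each cell title was taken as its chip, which gave 8 chips. Only SC6 held a tumor (Br53T2) with luminal cells (pBrL-2), so for the other 3 tumors chip and tumor cannot be told apart. The targeted genes could not check the genotypes, because the counts cover the whole gene and not the floxed part: *Brca1* was at 2.03 to 31.8 CPM in luminal mice and 1.70 to 57.2 CPM in tumors, and was higher in vBr53L (29.9), pBrL-2 (31.8) and pBr53L (31.5) than in v53L (6.99) and p53L (5.21), whose Brca1 was not floxed. *Trp53* was at 92.5 to 515 CPM in luminal mice, 5.05 CPM in BrT1, 49.8 CPM in BrT2, 67.2 CPM in Br53T1 and 140.4 CPM in Br53T2, so it was lowest in the Br tumors, whose labels name no floxed Trp53 allele, and below every luminal mouse in 3 of the 4 tumors. The 6 luminal markers (*Krt8*, *Krt18*, *Krt19*, *Epcam*, *Cdh1*, *Elf5*) summed to 7240 to 12783 CPM in luminal mice, 5545 CPM in Br53T1, 5617 CPM in Br53T2, 4059 CPM in BrT2 and 512 CPM in BrT1. BrT1 stood apart: *Krt19* and *Cdh1* were at 0 there, and 5 fibroblast genes (*Col1a1*, *Col1a2*, *Col3a1*, *Dcn*, *Pdgfra*) summed to 4955 CPM, most of it *Dcn* at 4356 CPM. In BrT2 the same 5 genes summed to 0.140 CPM, and in luminal mice to 0.117 to 712 CPM. The 5 basal genes summed to 5202 CPM in Br53T2 and to at most 374 CPM elsewhere. The 13 immune markers summed to 110.4 CPM in pBr53L and 56 CPM in vBrL, and were between 0.240 and 11.1 CPM in the other mice.

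Per base of exon, *B2m* was the most abundant member and *Nlrc5* the least on average over the luminal mice. On a scale of reads per exon length, scaled to the same total in every mouse (TPM), the 7 luminal mice averaged 18623 ± 6386 (SD) TPM for *B2m*, 4376 ± 1167 for *H2-D1* and 2079 ± 684 for *H2-K1*. *Tapbp* followed at 407 ± 99.7 TPM and *Psmb8* at 305 ± 79.4 TPM, neighbours whose spreads overlap. *Psmb10* at 99.0 ± 40.3 TPM, *Psmb9* at 65.8 ± 33.6 TPM and *Tap1* at 39.8 ± 26 TPM overlapped in turn. *Tap2* (27 ± 16.1 TPM) and *Nlrc5* (14 ± 9.47 TPM) came last, with overlapping spreads. In vBrL, pBr53L, BrT2 and Br53T2, *Tap2* was below *Nlrc5*. The ratio of *H2-D1* to *H2-K1* on this scale stayed between 1.89 and 2.55 in luminal mice and between 1.77 and 3.04 in tumors.

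*H2-K1*, a classical heavy chain, was at 1364 CPM in vBrL, 2176 in vBr53L, 1235 in v53L, 1907 in pBrL-1, 1550 in pBrL-2, 2992 in pBr53L and 1429 in p53L. It was at 463 CPM in BrT1 and 384 in BrT2, and 1685 and 1523 in Br53T1 and Br53T2. Both Br tumors lay below every luminal mouse, and both Br53 tumors lay inside the luminal range.

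*H2-D1*, the other classical heavy chain, was at 3055 CPM in vBrL, 3645 in vBr53L, 2530 in v53L, 3159 in pBrL-1, 3072 in pBrL-2, 5235 in pBr53L and 2635 in p53L, against 1236 in BrT1 and 873 in BrT2, and 3471 and 2368 in Br53T1 and Br53T2. Here Br53T2 also fell just under the lowest luminal mouse, at 0.936 of its level.

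*B2m*, the light chain of every class I molecule, was at 6892 CPM in vBrL, 5516 in vBr53L, 3478 in v53L, 3958 in pBrL-1, 3027 in pBrL-2, 6515 in pBr53L and 3618 in p53L. The tumors held 2181 CPM in BrT1 and 1361 in BrT2, and 2777 and 5305 in Br53T1 and Br53T2. BrT1, BrT2 and Br53T1 were under all luminal mice, and Br53T2 was above 4 of the 7. On chip SC6, which both shared, Br53T2 had 1.75 times the *B2m* of pBrL-2, 0.983 times its *H2-K1* and 0.771 times its *H2-D1*. Of all 10 members, 7 were lower in Br53T2 on this chip, down to 0.191 times for *Tap2* and 0.366 times for *Psmb9*, and *Nlrc5* was at 1.94 times. The share of all genes lower in Br53T2 than in pBrL-2 was not counted.

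*Tap1*, one subunit of the peptide transporter, was at 70.2 CPM in vBrL, 29.5 in vBr53L, 37.8 in v53L, 74.4 in pBrL-1, 56.5 in pBrL-2, 149.8 in pBr53L and 29.7 in p53L. It was at 9.46 CPM in BrT1 and 18.4 in BrT2, and 39.8 and 57.1 in Br53T1 and Br53T2. *Tap2*, its partner, ranged in luminal mice from 13.8 CPM in vBrL over a median of 23 to 58.2 in pBrL-2, and was at 4.50 in BrT1 and 3.39 in BrT2, and 78.4 and 11.1 in Br53T1 and Br53T2. Only 169 reads in BrT2 and 408 in BrT1 stand behind these *Tap2* values. *Tapbp* spanned 249.8 to 554 CPM in luminal mice (median 421) and was at 218 CPM in BrT1 and 168 in BrT2, and 424 and 385 in Br53T1 and Br53T2.

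*Psmb8*, the immunoproteasome form of *Psmb5*, was at 268 CPM in vBrL, 289.9 in vBr53L, 243 in v53L, 337 in pBrL-1, 269.6 in pBrL-2, 472 in pBr53L and 248.6 in p53L. BrT1 held 127 CPM, BrT2 56.9, Br53T1 418 and Br53T2 229.6. *Psmb9*, the counterpart of *Psmb6*, was at 44.9 CPM in vBrL, 86.4 in vBr53L, 32.6 in v53L, 58.7 in pBrL-1, 64.5 in pBrL-2, 146 in pBr53L and 66.7 in p53L, and at 17.2 in BrT1 and 8.62 in BrT2, and 51.6 and 23.6 in Br53T1 and Br53T2. Both genes were lowest in BrT2 and highest in pBr53L. *Psmb10*, the counterpart of *Psmb7*, did not share this order: it ranged from 26.4 to 82.5 CPM in luminal mice, was at 14 CPM in BrT2 and 30.9 in Br53T2, and reached 76.7 in BrT1 and 108 in Br53T1.

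*Nlrc5*, the transactivator, was at 31.9 CPM in vBrL, 24.6 in vBr53L, 29.3 in v53L, 26.2 in pBrL-1, 17.9 in pBrL-2, 88.3 in pBr53L and 26.6 in p53L. It was at 3.08 CPM in BrT1 and 7.79 in BrT2, from 279 and 389 reads, and 19.5 and 34.7 in Br53T1 and Br53T2. Of the 7 luminal mice, 6 lay within 17.9 to 31.9 CPM, pBr53L was 2.77 times the next of them, and BrT1 was 5.80 times under the lowest.

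**Figure D1:**
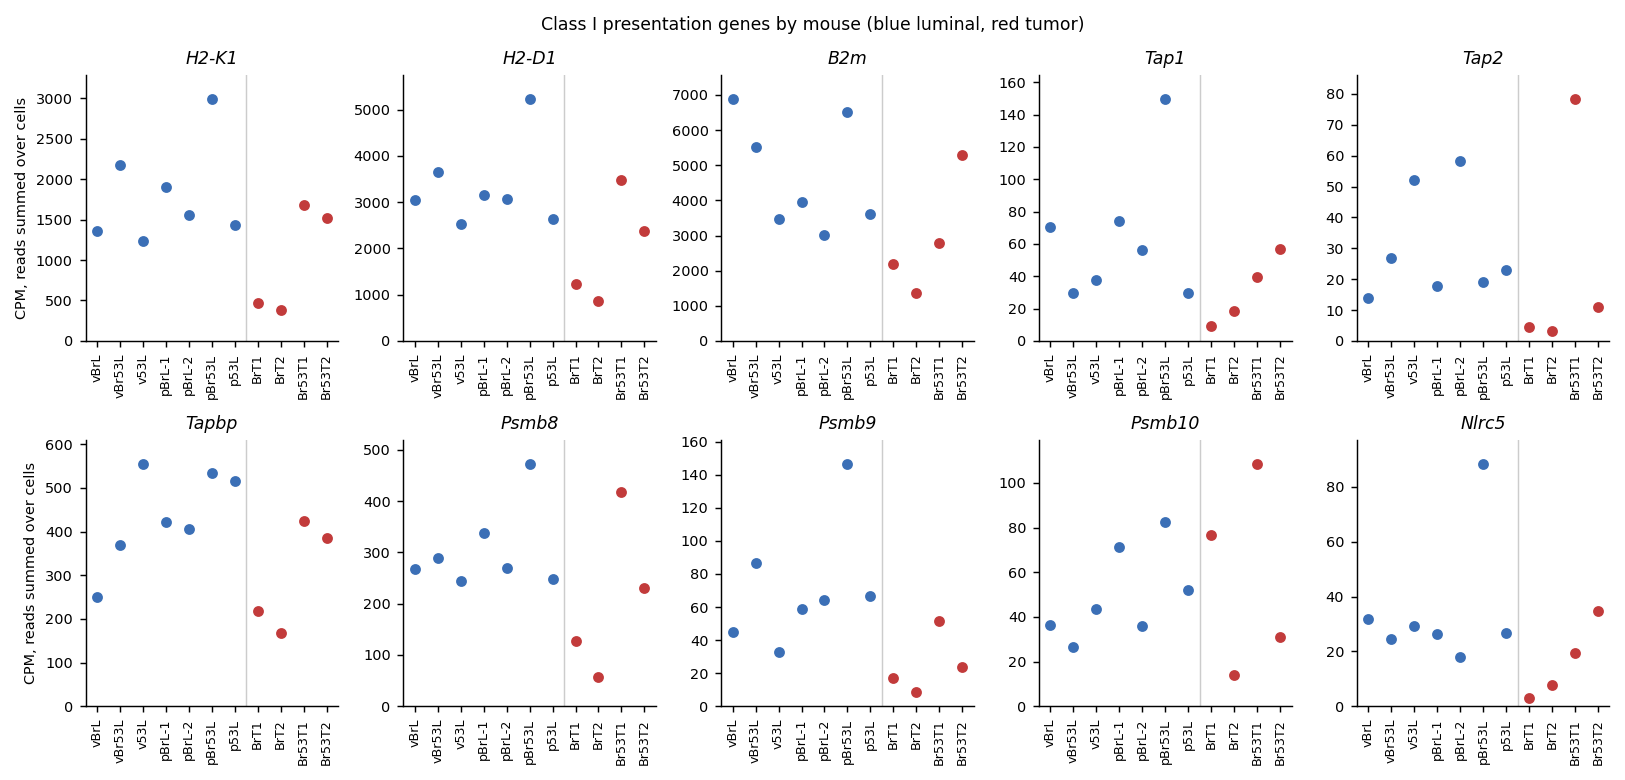
Level of each member (y axis, CPM of reads summed over the cells of a mouse, each panel from 0) in the 11 mice (x axis); blue points are luminal mice, red points tumors, 1 point per mouse with no error bar. BrT1 and BrT2 lie under the luminal points for most members, from 463 and 384 CPM of *H2-K1* down to 3.08 and 7.79 CPM of *Nlrc5*, and pBr53L is the highest luminal point for 7 of the 10.

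To describe each tumor on its own, where no test is possible with 1 mouse, a member was called lost if it was more than 2-fold below the lowest of the 7 luminal mice, and gained if more than 2-fold above the highest. BrT1 had lost 5 of 10 members (*H2-K1*, *H2-D1*, *Tap1*, *Tap2*, *Nlrc5*), where 8.95% of the 8886 genes averaging 10 CPM or more met the same rule. BrT2 had lost 7 (*H2-K1*, *H2-D1*, *B2m*, *Tap2*, *Psmb8*, *Psmb9*, *Nlrc5*), against 6.75% of all genes. Br53T1 and Br53T2 had lost 0 of 10, with 4.09% and 2.4% of all genes lost. No member was gained in any tumor, where the shares of all genes gained were 8.72% in BrT1 and 5.67% in BrT2, and 5.98% and 5.28% in Br53T1 and Br53T2. With CPM on TMM effective library sizes, or as a mean over cells, 7 members counted as lost in BrT1. In BrT1 *Psmb8* and *Psmb9* lay just outside the limit, 1.91-fold and 1.89-fold below the lowest luminal mouse, and *H2-D1* just inside it at 2.05-fold.

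Set against the median luminal mouse, *H2-K1* was 3.35-fold lower in BrT1 and 4.04-fold lower in BrT2, and *B2m* 1.81-fold and 2.91-fold lower. *Nlrc5* was 8.63-fold lower in BrT1 and 3.41-fold in BrT2, while *Psmb9* was 3.74-fold and 7.48-fold lower. In BrT1 the transactivator and the transporter were furthest down, and in BrT2 *Psmb9*, *Tap2* and *Psmb8* were. *Psmb10* in BrT1 was 1.76 times the luminal median.

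Below every luminal mouse, by any margin, were 9 of 10 members in BrT1 and 10 of 10 in BrT2, where 19.1% of the 8886 genes were so placed in each of these tumors. The counts were 1 of 10 in Br53T1 (*B2m*), against 13.8% of all genes, and 4 of 10 in Br53T2 (*H2-D1*, *Tap2*, *Psmb8*, *Psmb9*), against 10.1%. *Tap2* and *Psmb10* in Br53T1 were the only values of the 4 tumors above every luminal mouse, at 1.35 and 1.31 times the highest. The fibroblast genes stood at 4955 CPM in BrT1 and 0.140 CPM in BrT2, and their part in the levels of BrT1 was not tested.

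**Figure D2:**
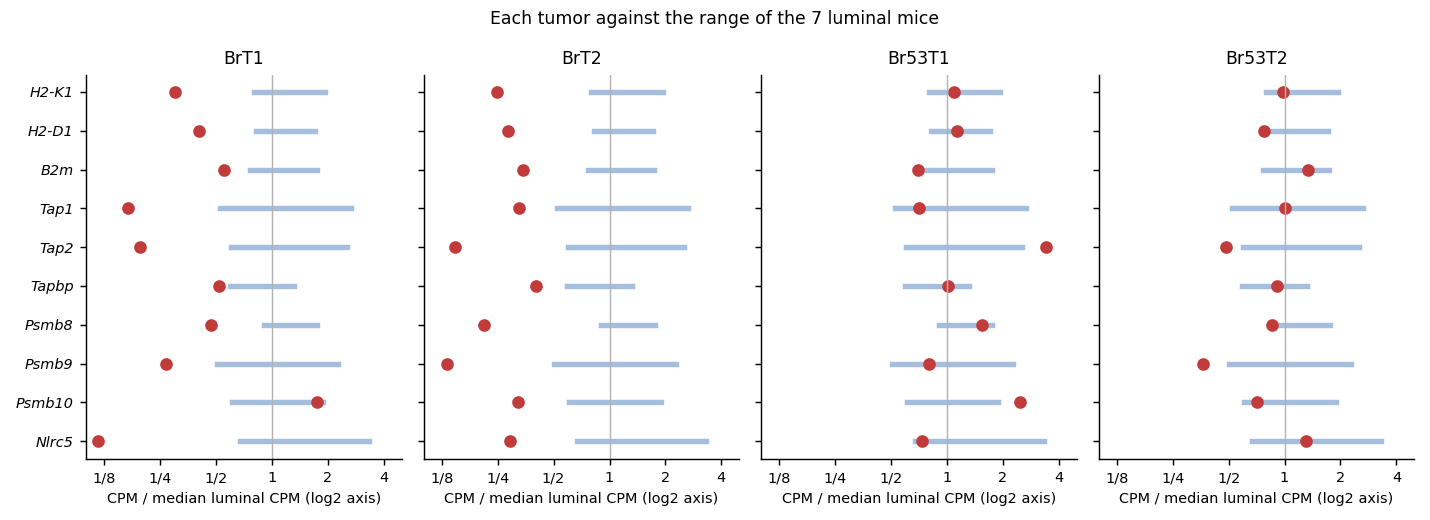
Each tumor's CPM divided by the median of the 7 luminal mice (x axis, log2 scale) for the 10 members (y axis); red points are the tumor, blue bars run from the lowest to the highest luminal mouse. All 10 points lie left of the bars in BrT2 and 9 of 10 in BrT1, while 7 of 10 in Br53T1 and 6 of 10 in Br53T2 lie within them.

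The first question of the design, whether the 4 tumors differ from the 5 luminal mice with Brca1fl/fl (Brca1-deficient below), was tested with edgeR on the summed counts. No member passed at an adjusted p of 0.05, where 0.609% of the 12978 genes tested did. *H2-K1* averaged 1014 ± 686 CPM (SD, n = 4) in tumors and 1998 ± 638 CPM (n = 5) in luminal mice, a log2 fold change of -1.15 ± 0.49 (SE, adjusted p = 0.329 by edgeR). For *Psmb9*, 25.3 ± 18.6 CPM stood against 80.2 ± 40.0 CPM, with a log2 fold change of -1.85 ± 0.56 and the lowest adjusted p of the members, 0.173. *Tap1* (-1.45 ± 0.60), *H2-D1* (-1.04 ± 0.43) and *B2m* (-1.0 ± 0.45) had adjusted p-values of 0.315, 0.315 and 0.355.

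Without adjustment, 5 of 10 members had p under 0.05 with the lower level in tumors, as did 5.8% of all genes. The median log2 fold change of the members was -1.02, and that of all genes tested 0.06. No member had all 4 tumors below all 5 luminal mice, where 2.51% of all genes did, because the Br53 tumors overlapped the luminal mice. DESeq2, which called 6.44% of the genes it adjusted, called 1 member, *Psmb9* (adjusted p = 0.0283). Scaling by library size alone moved the median of all genes from 0.06 to 0.20, and that of the members to -0.85. Without BrT1 the members had a median of -0.87 and *H2-K1* was at -0.91, and without pBr53L these were -0.83 and -0.96, with 0 members called either way, where 50 and 19 of all genes were called.

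The tumors were also compared with the luminal mice of their own genotype. These 2 contrasts were added after the values had been seen. The 2 Br tumors against the 3 Br luminal mice gave negative log2 fold changes for all 10 members with a median of -1.90, while the median of all genes was 0.00. *H2-K1* had -2.01 ± 0.44 (SE, adjusted p = 0.127 by edgeR), *Psmb9* -2.23 ± 0.61, *Tap1* -2.31 ± 0.77, *Nlrc5* -2.25 ± 0.88 and *Psmb8* -1.78 ± 0.51. None of the 10 was called, where 0.166% of 15051 genes were. Unadjusted, 9 of 10 had p under 0.05 with the lower level in tumors, against 5.24% of all genes, and for 9 of 10 both tumors lay below all 3 luminal mice, against 13.4%. The exception was *Psmb10*, at -0.24 ± 0.85.

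The 2 Br53 tumors against the 2 Br53 luminal mice gave smaller values for most members. *H2-K1* had a log2 fold change of -0.93 ± 0.45, *H2-D1* -0.84 ± 0.48, *B2m* -0.81 ± 0.60 and *Psmb8* -0.47 ± 0.52. *Psmb9* at -1.87 ± 0.63 was close to its value in the Br contrast, and *Tap2* was at 0.73 ± 1.05. The median was -0.83 over the members and 0.11 over all genes. No gene was called (0.0% of 15051), 1 member (*Psmb9*) had an unadjusted p under 0.05 with the lower level in tumors, against 2.13% of all genes, and 4 of 10 did not overlap, against 12%. One of the 2 luminal mice here is pBr53L, the mouse with the highest level of 6 of the 10 members.

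**Figure D3:**
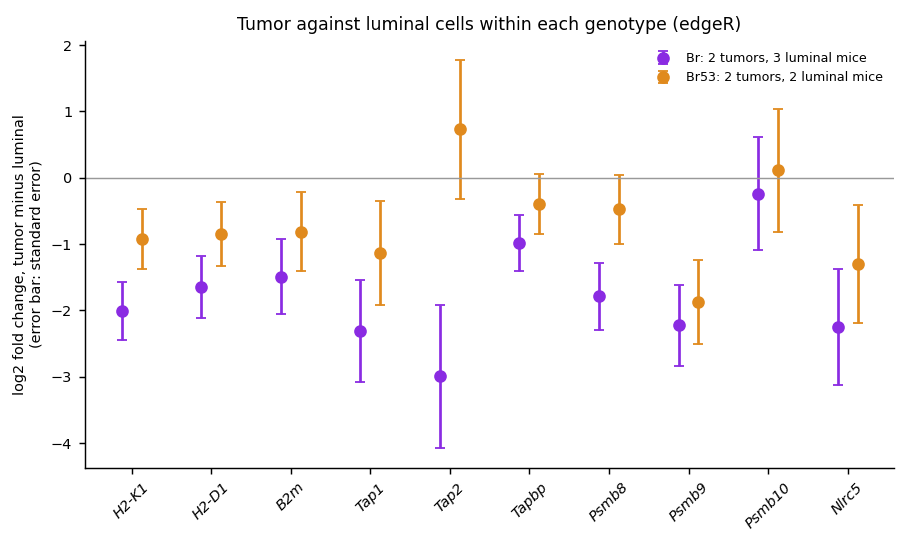
Log2 fold change of tumor over luminal mice from edgeR (y axis) for the 10 members (x axis), purple for Br and orange for Br53 mice, with standard errors as bars. *H2-K1* sits at -2.01 in Br and -0.93 in Br53 mice, and *Psmb9* at -2.23 and -1.87.

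Set directly against each other, the 2 Br53 tumors had positive log2 fold changes over the 2 Br tumors for all 10 members. *Psmb10* overlapped, and its sign turned in 2 of 18 alternative settings, to -0.56 without Br53T1. The median log2 fold change of the members was 1.58, against 0.00 for all genes tested. *H2-K1* differed by 1.84 ± 0.46 (SE, adjusted p = 0.656 by edgeR), *Tap2* by 3.43 ± 1.14 (1.42 without Br53T1), *Nlrc5* by 2.18 ± 0.92, *Psmb8* by 1.77 ± 0.53 and *H2-D1* by 1.40 ± 0.49. None of the 10 was called, where 0.00664% of 15051 genes (1 gene) were. Among them, 6 had an unadjusted p under 0.05, against 3.38% of all genes higher in the Br53 tumors at that level, and 9 of 10 had no overlap in that direction, against 18.1%. DESeq2 called *H2-K1* (adjusted p = 0.00229) and *Tap2* (adjusted p = 0.043), and 3.15% of the genes it adjusted.

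Whether the tumor effect itself depended on the Trp53 genotype was asked with an interaction term in edgeR. It was positive for all 10 members. Of 17 alternative settings, *Psmb10* turned in 4, to -0.82 without Br53T1. *Psmb9* turned in 2, to -0.32 without Br53T1 and to -0.52 with 30 cells per mouse. The median over the members was 0.88 against 0.12 over all genes, and edgeR called no member, where 0.00664% of genes were called. *Tap2* had the largest term, 3.72 ± 1.48 (adjusted p = 0.920, and 1.71 without Br53T1), and *H2-K1* had 1.08 ± 0.61 (adjusted p = 0.929). With library size alone as the scale, the medians were 1.05 and 0.27. With 2 tumors of each genotype, genotype and the make-up of a single tumor cannot be told apart.

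Among the luminal mice, pBr53L had the highest level of 7 of 10 members. The share of all genes highest in this mouse was not counted. *Tap1* there was 3.18 times the median of the other 6 luminal mice, *Nlrc5* 3.34 times, *Psmb9* 2.38 times, *H2-K1* 2.01 times, *Psmb8* 1.76 times and *H2-D1* 1.71 times. *Tap2* was not among them, at 0.773 times. The immune markers summed to 110.4 CPM in this mouse, and in 4 of its 53 cells these markers summed to 50 CPM or more. Without such cells *Tap1* was at 151 CPM, *Nlrc5* at 88.4 CPM, *H2-K1* at 3049.8 CPM, *Psmb10* at 78.7 CPM and *Tap2* at 17.3 CPM.

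For the pairs of mice compared next, shares of all genes were not counted. On chip SC7, which both mice shared, pBr53L was above vBr53L for 9 of 10 members, with 5.08 times its *Tap1*, 3.60 times its *Nlrc5* and 3.12 times its *Psmb10*. On chip SC9, p53L was above v53L for 6 of 10, from 0.442 times for *Tap2* to 2.05 times for *Psmb9*. Of the pregnant Br mice, pBrL-1 was above vBrL for 8 members and pBrL-2 for 6, and for both of them *B2m* (0.574 and 0.439 times vBrL) and *Nlrc5* (0.821 and 0.560 times) were lower. Here vBrL was on chip SC10, pBrL-1 on SC5 and pBrL-2 on SC6, so pregnancy and chip cannot be told apart. Pregnancy at day 12.5 over the 3 genotypes, tested with edgeR across all 7 luminal mice, called none of the members, where 0.0146% of 13709 genes (2 genes) were called. *Psmb9* had a log2 fold change of 0.76 ± 0.35 (adjusted p = 0.583), *Psmb10* 0.83 ± 0.48, *H2-K1* 0.38 ± 0.23 and *B2m* -0.28 ± 0.31. *B2m* turned to 0.23 with chip as a block and to 0.20 without vBrL. The median of the main fit was 0.36 over the members and 0.14 over all genes.

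The 5 Brca1-deficient luminal mice and the 2 Trp53 mutant mice were compared next, which sets both genotypes side by side before tumors arise. Of the 5, 3 carried no floxed Trp53 allele, so the contrast changes Trp53 as well as Brca1. No gene passed in edgeR (0.0% of 13709, with 757 at an unadjusted p under 0.05, and 647 genes by DESeq2), and no member passed by either tool. *H2-D1* averaged 3633 ± 927 CPM (SD, n = 5) against 2582 ± 74.5 CPM (n = 2), a log2 fold change of 0.34 ± 0.26 (SE). *Psmb8* was at 327 ± 85.7 CPM against 246 ± 3.64 CPM (0.24 ± 0.30). *Tapbp* had the reverse sign, 396 ± 102.4 CPM against 535 ± 27.6 CPM (-0.65 ± 0.28, adjusted p = 0.839). Both Trp53 mutant mice were on chip SC9 and no other mouse was, so genotype and chip cannot be told apart here.

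In single cells, *H2-K1*, *H2-D1* and *B2m* were read in every one of the 477 cells, so their level per cell was compared. The median cell had 340.2 CPM of *H2-K1* in BrT1 and 339 CPM in BrT2, with 80% of the cells between 49.3 and 958 CPM and between 74.9 and 767 CPM. The luminal medians ran from 1065 CPM in v53L to 2849 CPM in pBr53L. In Br53T1 the median was 1293 CPM and in Br53T2 1278 CPM, with a wide middle 80% of 497 to 3698 CPM and 239 to 3352 CPM.

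Counted against the lowest luminal median, 91.5% of BrT1 cells (43 of 47, exact 95% interval 79.6 to 97.6%) and 97.3% of BrT2 cells (36 of 37, 85.8 to 99.9%) had less *H2-K1* than the median v53L cell. The shares were 43.3% in Br53T1 and 45.1% in Br53T2. Among the other luminal mice they ran from 3.77% in pBr53L to 37.1% in vBrL. For *H2-D1* against the median p53L cell they were also 91.5% and 97.3% in the Br tumors, and 43.3% and 56.9% in the Br53 tumors. For *B2m* against the median pBrL-2 cell they were 76.6% in BrT1 and 91.9% in BrT2, and 60% and 29.4% in the Br53 tumors. The shift of the Br tumors thus covered most of their cells, while each Br53 tumor held cells on both sides, as did the luminal mice. Cells of 1 mouse are not replicates of its group, and these intervals cover counting error only, since reads without molecular identifiers include PCR copies.

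*B2m* in vBrL was spread widely over its cells: 5 of 35 had over 10000 CPM, and the median cell had 4736 CPM, less than the 6116 CPM of pBr53L and the 4942 CPM of vBr53L. Br53T2 also had 5 such cells of 51. The other luminal mice had 0 to 2.

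**Figure D4:**
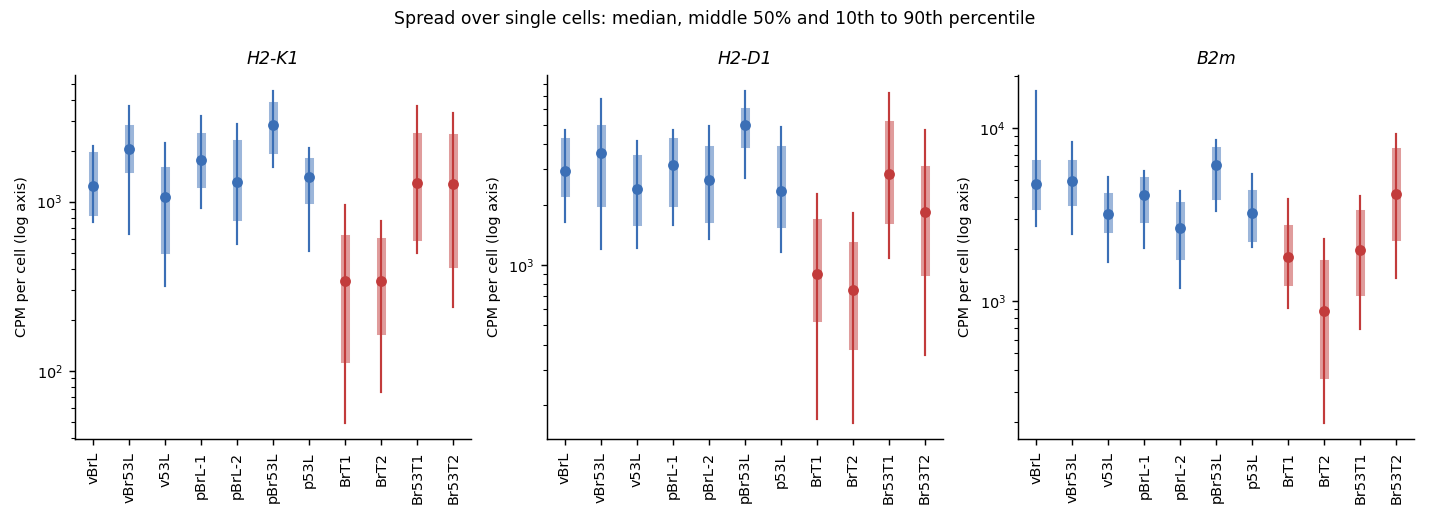
CPM per cell (y axis, log scale) of the heavy chains and *B2m* in the cells of each mouse (x axis); points are medians, thick bars the middle 50% and thin lines the 10th to 90th percentile, blue for luminal mice and red for tumors. Median *H2-K1* is 340.2 CPM in BrT1 and 339 CPM in BrT2, below all luminal medians (1065 CPM or more), and the thin lines of Br53T1 and Br53T2 span most of the luminal range.

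The less abundant members were read in a part of the cells, and these shares were taken after each cell had been thinned to 100000 reads. *Tap1* had a read in 6.38% of BrT1 cells (3 of 47, exact 95% interval 1.34 to 17.5%) and 16.2% of BrT2 cells (6 of 37, 6.19 to 32%). It was read in 43.3% of Br53T1 and 33.3% of Br53T2 cells, and in luminal mice from 20.5% in vBr53L to 75.5% in pBr53L. Unthinned, the shares were 10.6% in BrT1, 24.3% in BrT2, 76.7% in Br53T1, 52.9% in Br53T2 and 33.3 to 90.6% in luminal mice. The median cell had 1877775 reads in BrT1, 1323820 in BrT2 and 1044324 to 2173739 in luminal mice.

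*Nlrc5* had a read in 6.38% of the thinned cells of BrT1 and 10.8% of BrT2, against 23.3% in Br53T1, 39.2% in Br53T2 and 22.5 to 54.7% in luminal mice. Unthinned, the *Nlrc5* share was 34% in BrT1, above the 16.2% of BrT2 and below the 37.5 to 81.1% of luminal mice, so the order of BrT1 and BrT2 depended on the thinning. *Tap2* had a read in 10.6% of thinned BrT1 cells, 8.11% of BrT2 cells, 46.7% of Br53T1 and 17.6% of Br53T2 cells, and 14.3 to 37.7% of luminal cells, and unthinned in 21.3%, 10.8%, 66.7%, 39.2% and 23.1 to 56.6%. *Psmb9* was read in 23.4% of BrT1, 13.5% of BrT2, 46.7% of Br53T1, 29.4% of Br53T2 and 30.0 to 79.2% of luminal cells, and unthinned in 34%, 16.2%, 66.7%, 49% and 32.5 to 84.9%. *Tapbp* did not follow this order, with 85.1% of thinned BrT1 cells and 89.2% of BrT2 cells inside the luminal 82.9 to 100.0%, and Br53T2 lowest at 76.5%. *Psmb8* was read in 51.4% of BrT2 cells in 70.2% of BrT1 cells and in 70.6% of Br53T2 cells, next to 71.8 to 100.0% in luminal mice, and unthinned in 56.8%, 76.6%, 88.2% and 80 to 100.0%. For *Psmb10* the order again differed, with 68.1% of BrT1 cells, 24.3% of BrT2 cells, 93.3% of Br53T1 cells and 23.5% of Br53T2 cells. Of the 7 members other than the chains, the median thinned cell held 2 in BrT2, 3 in BrT1 and Br53T2, 4 in Br53T1, 3 in the 3 virgin luminal mice, 4 in pBrL-1, pBrL-2 and p53L, and 5 in pBr53L.

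**Figure D5:**
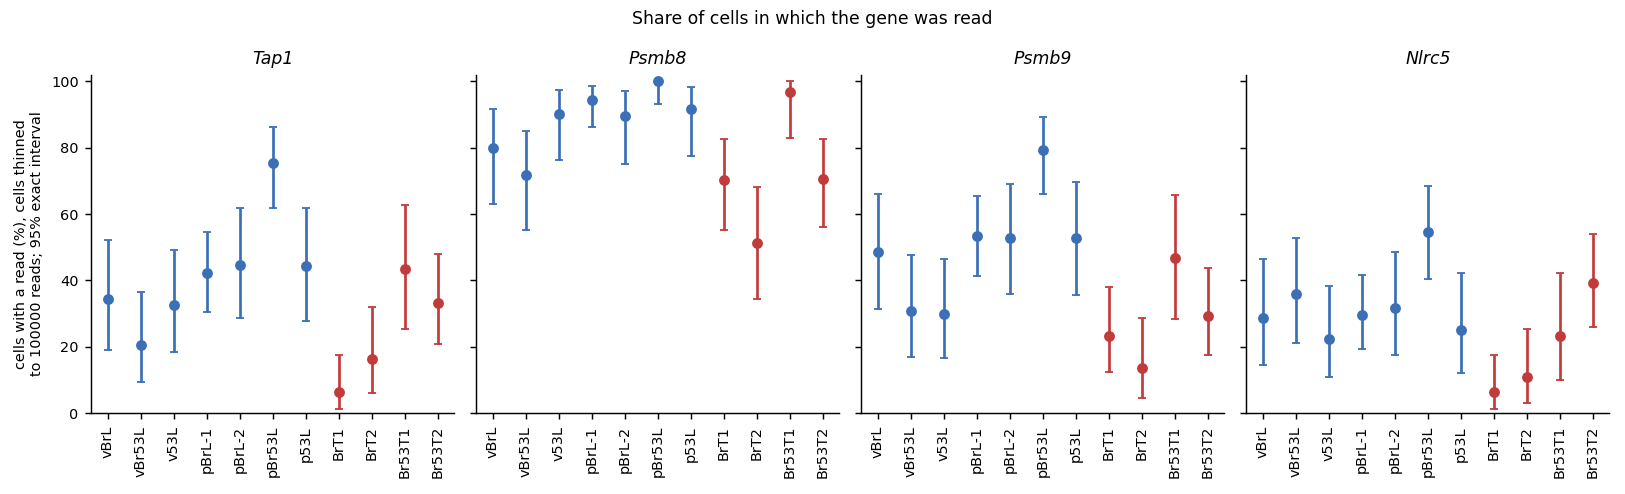
Percent of cells with a read of *Tap1*, *Psmb8*, *Psmb9* and *Nlrc5* (y axis) in each mouse (x axis) after thinning every cell to 100000 reads, with exact 95% intervals that cover counting error only; blue for luminal mice, red for tumors. For *Tap1* the points of BrT1 (6.38%) and BrT2 (16.2%) lie under all luminal points, and pBr53L is highest at 75.5%.

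Within a mouse, cells with more *H2-K1* tended to hold more *H2-D1*: Spearman's rho over the cells was positive in 11 of 11 mice, from 0.205 in vBrL to 0.772 in Br53T1. For *H2-K1* and *B2m* it ran from 0.028 to 0.596 (median 0.399), and for *H2-K1* and *Psmb8* from 0.003 to 0.408. These are descriptions, since values of 1 cell share its library and depth. Against the number of detected genes, rho of *H2-K1* was between -0.118 and 0.254.

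Across the 11 mice, the members followed one another with different closeness. Pearson's r of log2(CPM + 1) between pairs of members was positive for 45 of 45 pairs, with a median of 0.725. The mice share chips and tissue, and pairs of other genes were not counted. Against the mean of the other 9 members, *H2-D1* had r = 0.983, *H2-K1* and *Psmb8* 0.964, *Psmb9* 0.887, *Nlrc5* 0.811, *Tap2* 0.637 and *Psmb10* 0.423. Outside the members, the 5 genes most like their mean profile among 8709 candidates were *Tec* (r = 0.971), *Wfdc3* (0.942), *Psme1* (0.935), *Pqlc1* (0.932) and *Lpgat1* (0.897). *Tec*, a tyrosine kinase, was at 3.97 CPM in BrT1, 2.34 in BrT2, 24.2 in Br53T1, 14.6 in Br53T2 and 20.8 to 83.7 in luminal mice. *Psme1* encodes a subunit of the PA28 proteasome activator, which works with the immunoproteasome.

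The balance of immunoproteasome against constitutive subunits was examined per length. On the TPM scale, *Psmb8* was 1.34 to 3.39 times *Psmb5* in luminal mice, but 0.650 times in BrT1 and 0.171 in BrT2, and 0.624 and 0.964 in Br53T1 and Br53T2. All 4 tumors lay below all 7 luminal mice in this ratio. In Br53T1 it was low beside a *Psmb8* level of 416 TPM, with *Psmb5* at 667 TPM there and at 101 to 209.5 TPM in luminal mice. *Psmb9* was 0.0418 to 0.239 times *Psmb6* in luminal mice, 0.0242 in BrT1 and 0.0176 in BrT2, and 0.0735 and 0.0362 in Br53T1 and Br53T2. *Psmb10* over *Psmb7* was 0.390 to 1.60 in luminal mice. BrT2 (0.208) and Br53T2 (0.370) lay below that range, Br53T1 (2.24) above it and BrT1 (0.920) inside it. The ratios were examined after the levels had been seen, and no test was made on them.

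Of 7 further loading and processing genes, none was called by edgeR in any comparison, where it called at most 0.609% of all genes. Their median log2 fold change in tumors against Brca1-deficient luminal mice was -0.36, with 5 negative and 2 positive, where that of all genes was 0.06. *Calr* and *Pdia3*, chaperones of the peptide-loading complex, did not share the low levels. *Calr* was at 1115 CPM in BrT1 and 531 in BrT2, with 332 to 495 in luminal mice, and *Pdia3* was at 997 and 899.6 CPM, with 444 to 889.9. *Canx*, of the same list, was at 2016 CPM in BrT1 and 1616 in BrT2, with 1620 to 3605 in luminal mice. *Psme1* was at 81.6 CPM in BrT1 and 71.2 in BrT2, with 173 to 261 in luminal mice, and 339 and 150.3 in Br53T1 and Br53T2.

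Of 16 other class I heavy chain genes and relatives, 14 were counted. None was called by edgeR in any comparison, where it called at most 0.609% of all genes. Their median log2 fold change was -0.74 in tumors against Brca1-deficient luminal mice and 1.39 in Br53 against Br tumors. Those of all genes were 0.06 and 0.00. *H2-Q6*, a non-classical chain, was at 12.3 CPM in BrT1 and 23.5 in BrT2, and 67.1 and 265 in Br53T1 and Br53T2, with 151 to 389 in luminal mice. *H2-T23*, which encodes Qa-1, was instead at 212 CPM in BrT2, and 614 and 312 in Br53T1 and Br53T2, with 92.9 to 302 in luminal mice and 48 in BrT1. *H2-Q2* was low in all 4 tumors, at 0.261 to 4.69 CPM, with 14.1 to 59.5 CPM in luminal mice (log2 fold change -3.67 ± 0.97, adjusted p = 0.118 by edgeR).

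Of 18 regulators, 17 were tested in tumors against Brca1-deficient luminal mice, where edgeR called none and their median log2 fold change was 0.00. Over all genes, 0.609% were called and the median was 0.06. *Irf1*, a transcription factor that acts on class I promoters, was at 394 CPM in BrT1, 131 in BrT2, and 448 and 252 in Br53T1 and Br53T2, with 38.3 to 289.8 in luminal mice. *Nfkb1* was at 724 CPM in BrT1 and 497 in Br53T1, but 55.5 in BrT2 and 96.8 in Br53T2, with 23.3 to 290.1 in luminal mice. *Ifngr1*, the ligand-binding chain of the interferon gamma receptor, was at 40.5 CPM in BrT2, 59.8 in Br53T1, 106 in Br53T2 and 149 in BrT1, with 85.7 to 199 in luminal mice. Over the 11 mice, the highest r of a listed regulator with the mean of the members was 0.638, for *Irf9*, next to 0.637 for the member *Tap2*.

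The 10 interferon-induced genes summed to 67.9 CPM in BrT2, 830.4 in BrT1, and 967 and 453 in Br53T1 and Br53T2. Among luminal mice the sum ran from 106 CPM in vBr53L to 2378 CPM in pBr53L, so the mouse with the highest class I levels also had the most of these. *Ifi47* was at 646 CPM and *Gbp3* at 566 CPM in pBr53L, and both were at most 0.421 CPM in BrT2. The match was not general: vBr53L had a low sum beside the second highest *H2-K1* of all 11 mice, and BrT1 had 505 CPM of *Cxcl10* beside low class I levels. None of the 10 was called by edgeR in any comparison, where it called at most 0.609% of all genes. Their median log2 fold change was -1.07 in tumors against Brca1-deficient luminal mice and 2.64 in Br53 against Br tumors. Those of all genes were 0.06 and 0.00.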

How the data were processed

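The deposited values are raw read counts for each gene in each cell, made by the authors from Nextera XT libraries. Per the labels, reads were trimmed (Trim Galore 0.4.1), aligned to mm10 (STAR 2.5.3a) and counted (Subread 1.5.3). No molecular identifiers were used, so PCR copies count as reads, and strand use and annotation are not given in the sources used here. Antisense overlap, as of *Psmb9* and *Tap1*, can therefore mix reads.

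Mice served as replicates. The counts of all cells of a mouse were added and tested with edgeR 4.0.16 (quasi-likelihood, filterByExpr, TMM) in R 4.3.3, with Benjamini-Hochberg adjustment over all genes tested and a threshold of 0.05. SE is the log2 fold change divided by the root of the F statistic. Tumors against luminal mice had no covariate, the contrasts within genotypes used group means, and pregnancy and luminal genotype were fitted together over 7 mice. CPM used the total counts. TPM used exon lengths of GENCODE vM21 (GRCm38, the build also named mm10), which matched 99.6% of the 21004 genes. Shares of cells used 1 random thinning to 100000 reads per cell, with 0 cells too shallow.

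The text names all members, genes of lists written with the design, and the 5 genes with the largest Pearson r with the mean member profile (mean of at least 10 CPM, no gene models). Members and lists were chosen with earlier results of these data known. One gene passing the interaction test is left out. The alternatives were other scalings, DESeq2 1.42.0, limma 3.58.1 on the mean CPM over cells, no filter, only cells with at least 2000 genes, no cells whose immune markers summed to 50 CPM or more (11 of 477), 30 cells per mouse, other arms or covariates and leaving out each mouse. The edgeR step was tested on simulated data.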

Additional observations from a re-analysis of the deposited data

Results flagged for a closer look

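*Nlrc5* in pBr53L stood apart from the other luminal mice. On the log2(CPM + 1) scale, its gap to the next mouse was 0.642 of the range of the 7 luminal mice, above the 95% critical value of Dixon's test. The levels were 88.3 CPM in pBr53L and 17.9 to 31.9 CPM in the other 6. Of 20 sets of values examined (10 members in luminal mice and in tumors), 1 was past that value, and chance gives about 1 in 20. Without the cells whose immune markers summed to 50 CPM or more, *Nlrc5* was at 88.4 CPM in pBr53L. No member had a tumor effect that differed between Trp53 genotypes at an adjusted p of 0.05 by edgeR.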

How the results depend on the processing

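Under the alternatives run, *H2-K1*, *H2-D1*, *Tapbp* and *Psmb8* kept their direction in every comparison. With DESeq2, 1 member (*Psmb9*) was called lower in tumors than in Brca1-deficient luminal mice and 2 (*H2-K1*, *Tap2*) higher in Br53 than in Br tumors, against 0 by edgeR. The causes of the changes below were not tested. In tumors against luminal mice, the log2 value of *Tap2* turned to 0.73 within Br53 mice, and leaving out each mouse gave -2.24 to 0.11. That of *Psmb10*, near 0, turned to -0.014 with no filter, -0.30 with 30 cells per mouse, -0.057 with all luminal mice, -0.33 with pregnant mice only and -0.24 within Br mice, and leaving out each mouse gave -0.50 to 0.29. In Br53 against Br tumors, *Psmb10* ran from -0.56 (without Br53T1) to 2.12. In the interaction, *Psmb9* was at -0.52 with 30 cells and ran from -0.32 to 0.82, and *Psmb10* from -0.82 to 1.86, each lowest without Br53T1. For pregnancy, *B2m* was at 0.23 with chip as a block and ran from -0.51 to 0.20. *Tap2* was at -0.012 with library size only, -0.031 without immune-marker cells, -0.22 with 30 cells, -0.37 with limma, -0.098 with no covariate and -0.75 with chip as a block, and ran from -0.78 to 0.60. *Tap1* ran from -0.16 (without pBr53L) to 1.05, and *Nlrc5* from -0.32 (without pBr53L) to 0.90. Between luminal genotypes, *Nlrc5* was at -0.00045 with 30 cells and ran from -0.40 to 0.71, *Tap2* from -1.46 to 0.21 and *Psmb10* from -0.56 to 0.094.

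Over all genes, edgeR called 79, 1, 1, 2 and 0 genes in the tumor, tumor genotype, interaction, pregnancy and luminal genotype comparisons, DESeq2 808, 445, 370, 1044 and 647, and edgeR with no filter 129, 344, 281, 366 and 106. Over all settings the lowest count was 0 in each. With 1 mouse per tumor and reads without molecular identifiers, precision was limited by the number of mice, and *Tap2* in BrT2 rested on 169 reads.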
